A study of Mus musculus with 12 samples.

Results

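Notch signalling was described here in mouse inner and outer hair cells (IHCs and OHCs) through 10 genes: the ligands Dll1, Dll3, Jag1 and Jag2, the receptor Notch1, the glycosyltransferase Lfng, and the effectors Hes1, Hes5, Hes6 and Hey2. They were chosen by name, as genes of this pathway known from the developing ear, and were matched by GENCODE gene name to 10 of the 55416 Ensembl identifiers counted in each library. All 10 had enough counts to be tested between the cell types.

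A Notch receptor is cleaved when a ligand on a neighbouring cell binds it, and its freed intracellular domain then enters the nucleus, where it joins the DNA-binding protein RBPJ and a Mastermind-like coactivator to switch on genes of the Hes and Hey families. In the developing organ of Corti, the sensory strip of the cochlea, nascent hair cells present Dll1 and Jag2, and the receptor on neighbouring cells holds these back from the hair cell fate, so that hair cells and supporting cells alternate. Jag1 is best known from supporting cells and their precursors, and the Hes and Hey repressors act there against Atoh1, the transcription factor that makes hair cells.

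RNA-seq libraries were made from 6 pools of IHCs and 6 pools of OHCs, sorted from the organ of Corti of newborn mice at postnatal day 0 (P0). The labels give the genotype of every library as WT, but the cells of both types came from mice with reporter alleles: Atoh1-GFP, a knock-in fusion that marks all hair cells, Insm1-GFP-Cre, a knock-in at a gene that OHCs express, and R26-TdTomato, which Cre switches on. IHCs were the cells with green fluorescence alone, and OHCs the cells with both green and red fluorescence, so the 2 groups differ in cell type and in whether Cre had acted. The study treats the 6 libraries of each type as biological replicates, each from a pool of cells. By its abstract, every replicate pooled cells of several newborn mice, male and female. Nothing in the labels ties a pool to particular animals. Values in a pool are means over its cells, so that fewer cells of a type and less RNA per cell cannot be told apart.

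IHC libraries held 31490204 to 44017309 counts on genes, and OHC libraries 29564827 to 39121988. Ribosomal RNA took 21.45% to 56.92% of them in IHCs and 23.39% to 36.43% in OHCs, and IHC replicate 1, with the highest share, was left with 13565175 counts on other genes against at least 21162439 in each of the other libraries. Levels are given as CPM, counts scaled to one common library total, after TMM normalization, which adjusts the totals so that most genes match between libraries. The sort labels were checked against marker genes, which were chosen with earlier results of these data known. All 4 IHC markers, Tbx2, Fgf8, Slc17a8 and Otof, were higher in IHCs, and of the 4 OHC markers Insm1, Neurod6 and Bcl11b were higher in OHCs while Ikzf2 was not called (log2 fold change -0.40, edgeR adjusted p = 0.84). Since OHCs were sorted by Cre made from the Insm1 locus, Insm1 is no independent check. Markers of other cells also had counts. Of 10 supporting cell markers none was at 0 throughout. Their summed level was 252 to 772 CPM in IHC libraries and 75.1 to 195 CPM in OHC libraries. That of 5 markers of the greater epithelial ridge was 704 to 1592 CPM and 145 to 596 CPM. For 7 mesenchyme markers it was 42.8 to 59.3 CPM and 5.07 to 27.3 CPM. For 10 endothelial markers it was 0.523 to 13.02 CPM and 17.01 to 235 CPM. The supporting cell, ridge and mesenchyme sums were higher in every IHC library than in any OHC library. The endothelial sum was higher in every OHC library. Whether these counts came from other cells or from the hair cells was not tested.

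None of the 10 genes was called between IHCs and OHCs by edgeR's quasi-likelihood test at a Benjamini-Hochberg adjusted p below 0.05, with 6 IHC and 6 OHC libraries. Across all 13269 tested genes 6.26% were called, 3.81% higher in IHCs and 2.44% higher in OHCs. At an unadjusted p below 0.05 the count among the 10 was 1, Dll1, against 2889 of all tested genes (21.8%). DESeq2 called 1, again Dll1, and 17.4% of all the genes it tested, so that neither count of 1 stands above the share over all genes. No gene of the 10 had 6 libraries of one type all above the 6 of the other, an arrangement found for 4.60% of tested genes (2.37% with IHCs above and 2.22% with OHCs above). The fitted log2 fold change, given throughout as OHCs over IHCs, was below 0 for 6 genes and above 0 for 4, with a median of -0.23 beside -0.04 for all tested genes. With this few libraries the intervals are wide, and a gene that was not called has not been shown to be at the same level in both cell types.

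**Figure D1:**
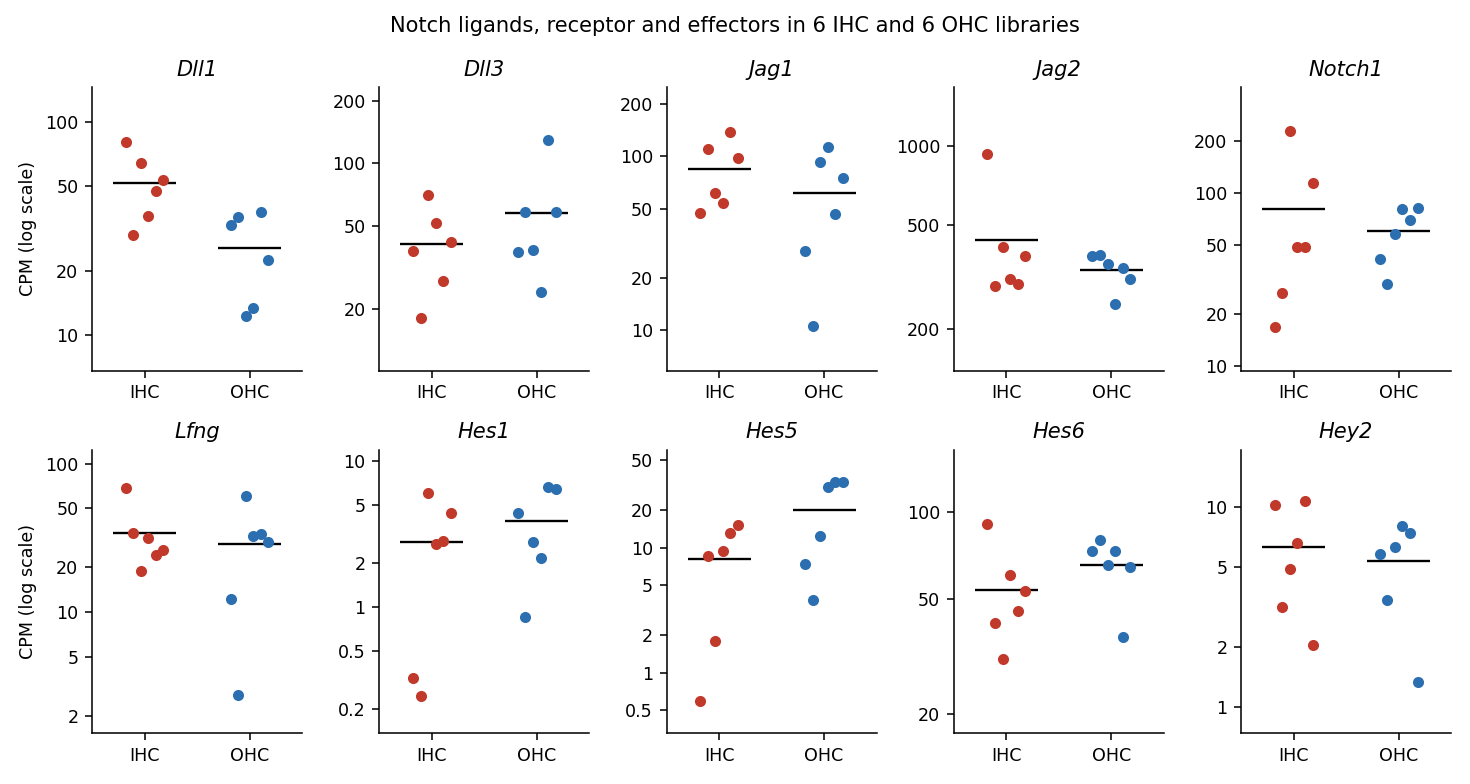
CPM (log scale) of the 10 genes in each library, with IHCs in red and OHCs in blue, 1 point per library and a bar at the mean. The 2 groups overlap in every panel, Jag2 has 1 IHC library at 934 CPM far above the rest, and Hes5 has 3 OHC libraries above all IHC libraries.

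Among the ligands, Dll1 came closest to a difference. Dll1 (chromosome 17, 15587276 to 15597134, minus strand, GRCm39), one of the ligands that hair cells present to their neighbours, ran from 29.5 to 81.3 CPM in IHCs with a median of 50.5, and from 12.2 to 37.8 CPM in OHCs with a median of 27.7. The groups overlapped, but 4 of the 6 IHC libraries lay above all OHC libraries, and OHC replicates 3 and 4 were the lowest. Mean levels were 52.0 ± 18.9 CPM and 25.8 ± 11.4 CPM (SD, n = 6 each). The log2 fold change was -1.01 (SE 0.37, 95% interval -1.79 to -0.24), which edgeR's quasi-likelihood test did not call (adjusted p = 0.112). By DESeq2 the value was -1.03 with an adjusted p of 0.0417, and over all alternatives the adjusted p ran from 0.0417 to 0.194. A limit on this gene is that 27.6% of its exon bases lie opposite exons of Fam120b, and the strand setting of the counting is not given in the sources used here.

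Dll3 (chromosome 7, 27992978 to 28001673, minus strand) is a divergent ligand that works inside the cell that makes it and does not activate receptors on neighbours. Its level was 18.1 to 70.3 CPM in IHCs (median 39.7) and 24.1 to 129 CPM in OHCs (median 48.3). OHC replicate 5 stood alone at the top, and the other 5 OHC libraries, none above 58.3 CPM, lay within the IHC range. The log2 fold change was 0.49 (SE 0.40, interval -0.34 to 1.31, edgeR adjusted p = 0.509), and without OHC replicate 5 it was 0.07.

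Jag2 had the highest level per length of the 10 genes, and its level in OHCs varied little between libraries. Jag2 (chromosome 12, 112871421 to 112893437, minus strand), the other ligand known from hair cells, was at 292 to 934 CPM in IHCs (median 347) and at 250 to 386 CPM in OHCs (median 349). The medians were thus nearly the same. A single library set the difference between the means of 438 ± 248 CPM and 338 ± 51.0 CPM (SD, n = 6 each): IHC replicate 1, also the library with the most ribosomal RNA, held 934 CPM, and the next highest held 412 CPM. The log2 fold change was -0.37 (SE 0.26, interval -0.92 to 0.17, edgeR adjusted p = 0.429) with this library and -0.01 (adjusted p = 0.974) without it. Among OHC libraries the SD of its log2 CPM was 0.23, lower than for all but 4.82% of tested genes.

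Jag1 (chromosome 2, 136923373 to 136958693, minus strand), the ligand of supporting cells and their precursors, ran from 47.1 to 138 CPM in IHCs (median 79.7) and from 10.6 to 113 CPM in OHCs (median 61.0). OHC replicates 2 and 1 were lowest, and those at the top of the OHC range, replicates 4 and 3, overlapped the IHC libraries. The log2 fold change was -0.47 (SE 0.43, interval -1.37 to 0.42, edgeR adjusted p = 0.56). The summed supporting cell markers were also lowest in OHC replicates 1 and 2, at 75.1 and 91.7 CPM, and highest in IHC replicate 5, at 772 CPM, which had the most Jag1. Their part in the level of Jag1 was not tested.

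The shares of the 4 ligands in their summed level were compared on a scale that allows for gene length, CPM per kilobase of exon. Dll4 and other ligands outside the 10 genes are not in this sum. Jag2 made up 59.2% ± 9.70 of the summed level of the 4 ligands in IHCs and 58.7% ± 8.81 in OHCs (SD, n = 6 each), with 50.2% to 78.2% and 45.5% to 69.4% in single libraries. Dll1 made up 10.45% ± 1.53 in IHCs, with a range of 8.31% to 12.4%, and 6.22% ± 2.33 in OHCs, with a range of 3.05% to 8.74%. Its share thus had a narrow overlap: of the IHC libraries only replicate 2 fell within the OHC range. Jag1 ran from 4.69% to 27.8% in IHCs and from 2.15% to 29.3% in OHCs, and Dll3 from 7.35% to 22.1% and from 12.2% to 39.9%. With the length of the longest transcript in place of all exon bases, Jag2 made up 63.6% in IHCs and 63.1% in OHCs. These shares are a description and carry no test.

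Ratios of 2 genes within a library do not depend on library size, and 3 were tested between cell types by a two-sided exact permutation test, with adjustment over the 3. The log2 ratio of Jag2 to Dll1 counts was 3.02 ± 0.35 in IHCs, from 2.65 to 3.52, and 3.84 ± 0.62 in OHCs, from 3.18 to 4.86 (SD, n = 6 each). It was 0.82 higher in OHCs (exact permutation p = 0.01515, adjusted p = 0.04545). The limit on Dll1, that some of its exon bases lie opposite exons of Fam120b, holds for this ratio too. How often other pairs of genes would pass the same test was not examined. The 2 groups still overlapped, and the call was fragile: it held when IHC replicate 1, OHC replicate 2 or OHC replicate 5 was left out, and was lost when any 1 of the remaining 9 libraries was, with differences of 0.62 to 0.95 and adjusted exact permutation p from 0.01948 to 0.1104. For Jag1 to Jag2 the difference was -0.48 (exact permutation p = 0.5216), and for Hes6 to Hes5 it was -1.24 (exact permutation p = 0.2879, adjusted p = 0.4318).

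**Figure D2:**
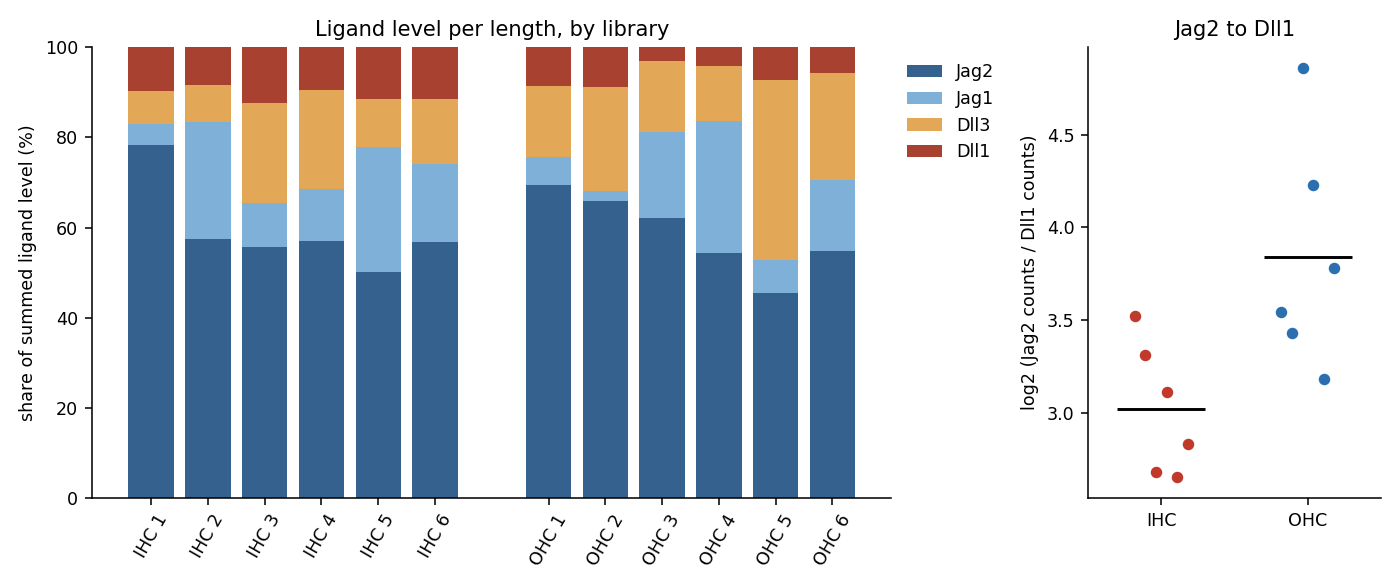
Left, share (%) of each ligand in the summed CPM per kilobase of the 4 ligands, 1 bar per library; right, log2 ratio of Jag2 to Dll1 counts, 1 point per library and a bar at the mean. Jag2 is the largest share in all 12 libraries, and the ratio averages 3.02 in IHCs and 3.84 in OHCs.

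Notch1 itself (chromosome 2, 26347915 to 26406675, minus strand), the receptor that hair cell ligands engage on neighbouring cells, was counted in every library. It ranged from 16.9 to 227 CPM in IHCs (median 48.6) and from 29.7 to 82.3 CPM in OHCs (median 63.96). IHCs spanned the whole OHC range, with IHC replicates 3 and 6 above all OHC libraries and replicates 1 and 2 below them. Its fitted log2 fold change was -0.41 (SE 0.48, interval -1.42 to 0.59, edgeR adjusted p = 0.657). Its sign rested on IHC replicate 3, since the value without that library was 0.23 (adjusted p = 0.797).

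Lfng (chromosome 5, 140593075 to 140601300, plus strand), which adds sugars to Notch receptors and so changes how they respond to each class of ligand, is expressed in supporting cells of the neonatal cochlea. Its level was 18.8 to 68.7 CPM in IHCs (median 28.9) and 2.74 to 61.0 CPM in OHCs (median 31.2). The top IHC library was again replicate 1, and OHC replicate 2 was the lowest, as it was for Jag1. With a log2 fold change of -0.24 (SE 0.52, interval -1.32 to 0.84, edgeR adjusted p = 0.828), which was 0.08 without IHC replicate 1, no direction can be given.

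The effectors differ in how directly they answer the receptor. Hes1, Hes5 and Hey2 encode transcriptional repressors that are textbook targets of the Notch and RBPJ complex, while Hes6 encodes a relative that opposes Hes1 and is made in differentiating hair cells. The RBPJ core motif, TGGGAA, was looked for on both strands in RefSeq promoters of GRCm38.p6, each from 250 bases before to 50 bases after a start. Of the 10 genes 9 had a promoter in that table, the exception being Hes1, and 3 of the 9 held the motif: Hes5, Hey2 and Lfng, with 2 copies each. Of all 32851 promoters, 25.6% held it at least once and 3.79% at least 2 times. The longer form GTGGGAA, which contains the first, was present 2 times for Hes5 and Hey2 and 1 time for Lfng, and 2 or more copies were present in 0.256% of all promoters. These windows are shown because they are the only copies of the pathway's own motif in the promoters of these genes, and each was placed in GRCm39 by its only exact match. Letters run 5′ to 3′ on the strand of the gene, capitals mark the 6 bases of the motif, and TTCCCA is the motif read from the other strand. Distances are counted from the RefSeq start, which in all 3 genes lies inside the GENCODE gene whose ends are given here, so that the Hey2 window nearest the start falls within the GENCODE gene.
Hes5, 226 bases before the start, chr4:155045142-155045171, plus strand: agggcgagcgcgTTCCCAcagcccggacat
Hes5, 82 bases before the start, chr4:155045286-155045315, plus strand: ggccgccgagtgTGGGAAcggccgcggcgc
Hey2, 207 bases before the start, chr10:30718969-30718998, minus strand: tgcgcggtggcaTTCCCAcgcctctgccaa
Hey2, 3 bases before the start, chr10:30718765-30718794, minus strand: tgggctgcagcgTGGGAAagaacctccagg
Lfng, 135 bases before the start, chr5:140592949-140592978, plus strand: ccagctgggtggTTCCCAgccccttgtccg
Lfng, 108 bases before the start, chr5:140592976-140593005, plus strand: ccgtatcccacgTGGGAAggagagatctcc

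The 2 copies lie on opposite strands in each of the 3 promoters, and a match of letters is a description and not a measured binding site. The 3 genes that hold the motif did not share a direction between cell types: Hes5 was fitted above 0, and Lfng and Hey2 below 0, none of them called.

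Hes5 (chromosome 4, 155045373 to 155046828, plus strand) had the largest fitted change of the 10 genes, but also one of the widest spreads. It ran from 0.589 to 15.1 CPM in IHCs (median 8.99) and from 3.84 to 33.7 CPM in OHCs (median 21.4). OHC replicates 4, 5 and 6, at 30.6 to 33.7 CPM, lay above all IHC libraries, IHC replicates 1 and 3 lay below all OHC libraries, and the rest overlapped. Means were 8.08 ± 5.85 CPM and 20.2 ± 13.9 CPM (SD, n = 6 each), and the log2 fold change was 1.32 (SE 0.71, interval -0.15 to 2.79, edgeR adjusted p = 0.285). The data therefore allow anything from 0.900-fold to 6.93-fold in OHCs relative to IHCs. An antisense gene, Gm20421, lies opposite 32.1% of its exon bases and reached at most 63 counts in a library, so reads of the pair are uncertain if strand was not used.

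Hes1 (chromosome 16, 29882134 to 29886643, plus strand) was among the lowest of the 10 genes per length. IHC libraries held 0.244 to 6.07 CPM (median 2.78), from 5 to 232 counts, and OHC libraries 0.854 to 6.64 CPM (median 3.597), from 28 to 274 counts. IHC replicates 1 and 2 were both under 0.4 CPM, and the other 4 IHC libraries sat among the OHC libraries. The log2 fold change of 0.49 (SE 0.89, interval -1.37 to 2.34, edgeR adjusted p = 0.793) leaves room for a fold between 0.388 and 5.05.

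Hey2 (chromosome 10, 30708350 to 30718828, minus strand), known from the pillar cells that stand between the IHC and OHC rows, was the other low gene. Its level was 2.04 to 10.7 CPM in IHCs (median 5.76) and 1.34 to 8.02 CPM in OHCs (median 6.06). All OHC libraries but replicate 6 lay within the IHC range, with a log2 fold change of -0.22 (SE 0.69, interval -1.67 to 1.22, edgeR adjusted p = 0.885).

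Hes6 (chromosome 1, 91339204 to 91342103, minus strand) had the highest level per length of the effectors. It ran from 31.0 to 90.6 CPM in IHCs (median 49.4) and from 36.8 to 79.8 CPM in OHCs (median 69.2). Apart from OHC replicate 5, the lowest of its group, OHC libraries kept to a band of 64.4 to 79.8 CPM, which IHC replicate 1 alone exceeded. On the log2 scale the fold change was 0.28 (SE 0.29, interval -0.33 to 0.89, edgeR adjusted p = 0.611), and 0.40 without OHC replicate 5.

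Per length, the 10 genes spanned a wide range of levels in both cell types, with Jag2 first and Hes6 second. Jag2 averaged 61.8 ± 34.9 CPM per kilobase in IHCs and 47.6 ± 7.18 in OHCs (SD, n = 6 each), above 98.0% and 97.7% of tested genes. Hes6 followed at 18.7 ± 7.20 and 22.8 ± 5.26. In IHCs the order went on with Jag1 at 14.2, Dll3 at 13.5, Lfng at 13.4, Dll1 at 10.49, Hes5 at 5.89 and Notch1 at 5.65 CPM per kilobase. At the bottom of the IHC order came Hey2 at 1.28 and Hes1 at 0.819. In OHCs the mean levels per length after Hes6 were 18.9 for Dll3, 14.8 for Hes5, 11.3 for Lfng, 10.3 for Jag1, 5.19 for Dll1, 4.24 for Notch1, 1.15 for Hes1 and 1.096 for Hey2. With the length of the longest transcript in place of all exon bases, Dll3 came before Jag1 and Notch1 before Hes5 in IHCs. In OHCs Notch1 then came before Dll1, and Hey2 before Hes1.

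Neighbours in each order were compared within libraries by a two-sided exact sign-flip permutation test, over 18 pairs. Jag2 was above Hes6 in 6 of 6 IHC and 6 of 6 OHC libraries, by 1.67 ± 0.49 and 1.09 ± 0.47 on the log2 scale (SD). Notch1 was likewise above Hes1 in 6 of 6 OHC libraries, by 2.09 ± 0.86. These 3 pairs reached 0.03125, the smallest exact permutation p that 6 libraries allow, and an adjusted p of 0.1875, so this design had little room to pass the correction. For the other 15 pairs the exact permutation p was from 0.09375 to 1.0, so neighbours from Hes6 to Notch1 were not told apart in either cell type. Genes further apart in the order were not tested. In OHCs the lowest Hes6 value, 12.8 CPM per kilobase, was above the highest of Notch1, 5.78.

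**Figure D3:**
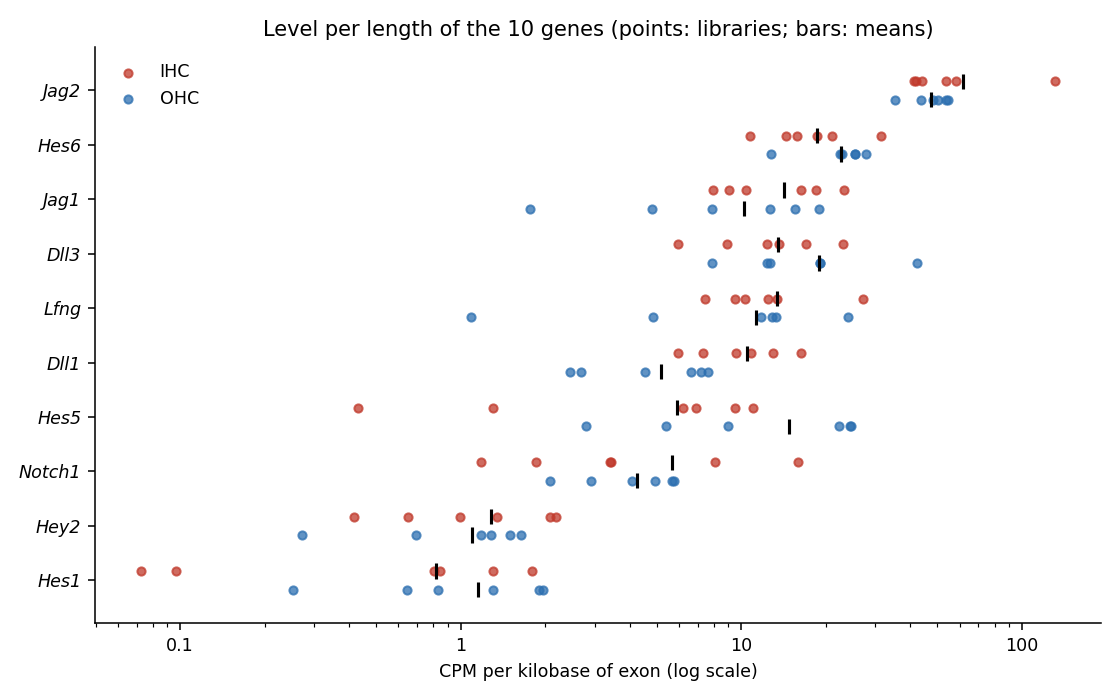
CPM per kilobase of exon (log scale) of the 10 genes, ordered by the IHC mean, with 1 point per library (IHCs red, OHCs blue) and a bar at each mean. Jag2 leads at 61.8 and 47.6, and Hes1 and Hey2 lie lowest in both cell types.

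The 10 genes differed in how far replicates spread. The median SD of log2 CPM over all tested genes was 0.969 in IHCs and 0.781 in OHCs. Dll1 at 0.53 and 0.72, Hes6 at 0.53 and 0.40 and Jag2 at 0.64 and 0.23 were steadier than that in both cell types. Hes1 at 1.86 and 1.09 and Hes5 at 1.83 and 1.32 were more variable in both. Notch1 was variable in IHCs alone, with 1.37 against 0.58 in OHCs, whereas Lfng and Jag1 were variable in OHCs, with 1.58 against 0.64 and 1.28 against 0.63. Dll1, Jag2 and Hes6 thus varied less across pools than Hes1 and Hes5, which were at lower mean CPM in both cell types. The part of level in this spread was not tested. In IHCs, Jag1 at 0.63 and Lfng at 0.64 were about as steady as Jag2.

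For each of the 10, the tested gene with the most similar course over the 12 libraries was found by the root mean square difference of centred log2 CPM. The smallest difference was that of Bdnf, which encodes a neurotrophin that hair cells make, for Jag2, at 0.228. Ttll7 for Hes6 at 0.24 and Cdc42bpb for Dll1 at 0.317 followed. Lfng was matched with Chadl at 0.376, Jag1 with Sparc, an extracellular matrix protein, at 0.409, Dll3 with Hdhd2 at 0.428 and Hey2 with Ccnl2 at 0.452. The 3 largest differences were those of Adipor2 for Notch1 at 0.549, Erbb4, a neuregulin receptor, for Hes5 at 0.653 and Arhgap26 for Hes1 at 0.776. Each gene's own spread over the 12 libraries bears on these values. On the same scale it was 0.455 for Jag2, 0.457 for Hes6, 1.14 for Lfng, 1.47 for Hes1 and 1.65 for Hes5. A smaller difference therefore need not mean a closer course. The measure includes the difference between cell types, so a match to an uncalled gene tends to be uncalled as well. That none of these matched genes was called is therefore no separate result.

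Elsewhere in the pathway, 48 further genes were listed by role, and 43 of them could be tested. Called genes were 2, Heyl and Maml3, both higher in IHCs, or 4.65% of those tested, beside 3.81% of all genes called in that direction. None was called higher in OHCs by edgeR. DESeq2 called 1 of 39 higher in OHCs, Notch4, beside 1590 of all 16869 genes it tested. It called 3 of the 39 higher in IHCs, beside 1339 of all genes. At an unadjusted p below 0.05 there were 9 of the 43, a share close to the 21.8% of all tested genes. Of the fitted values 32 were below 0 and 11 above, with a median of -0.41 beside -0.04 for all tested genes. Dlk1, Dtx1, Hes2, Hes3 and Hes7 had too few counts to be tested.

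Heyl (chromosome 4, 123127349 to 123143682, plus strand), a repressor of the Hey family, ran from 35.6 to 215 CPM in IHCs and from 1.31 to 35.6 CPM in OHCs. Every IHC library was above every OHC library, although the nearest pair, IHC replicate 6 at 35.58 CPM and OHC replicate 4 at 35.56 CPM, all but touched. Mean levels were 102 ± 67.0 CPM and 15.4 ± 12.7 CPM (SD, n = 6 each), and the log2 fold change was -2.73 (SE 0.58, interval -3.94 to -1.51, edgeR adjusted p = 0.00697). Maml3 (chromosome 3, 51593328 to 52012497, minus strand), one of the Mastermind-like coactivators, was at 49.6 to 118 CPM in IHCs and at 5.02 to 28.6 CPM in OHCs. The groups were well apart, with means of 80.3 ± 27.5 CPM and 16.4 ± 7.67 CPM (SD, n = 6 each), and the fitted value was -2.29 (SE 0.38, interval -3.08 to -1.51, edgeR adjusted p = 0.000766). Leaving out any 1 library kept both calls, at -3.17 to -2.38 for Heyl and -2.54 to -2.12 for Maml3.

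Some markers of supporting cells and of the greater epithelial ridge were also higher in IHCs. Of the 10 supporting cell markers all were fitted below 0 and 2 were called higher in IHCs, Sox2 at -1.42 (edgeR adjusted p = 0.0142) and Gjb2 at -2.83 (adjusted p = 0.00334), with 5 at an unadjusted p below 0.05. The other 8 supporting cell markers did not pass the test. Of the 5 ridge markers 3 were tested, and Tecta was called at -1.81 (edgeR adjusted p = 0.00211), while Tectb was fitted at -0.62 (adjusted p = 0.465) and Otoa at 0.60 (adjusted p = 0.661). Epyc and Crabp1 had too few counts to be tested. Their part in the levels of Heyl and Maml3 was not tested. Of 9 markers common to both hair cell types 6 were fitted below 0 and 2 were called, both higher in IHCs: Gfi1 at -1.02 (edgeR adjusted p = 0.0106) and Espn at -1.65 (adjusted p = 0.000907). At an unadjusted p below 0.05 there were 8 of the 9, among which Myo6 at 0.47 and Ptprq at 0.41 were fitted higher in OHCs. The summed level of the 9, most of it from Myo6 and Ptprq, was 5794 to 6776 CPM in IHCs and 6005 to 7188 CPM in OHCs. The part of these genes in the result was not tested either.

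**Figure D4:**
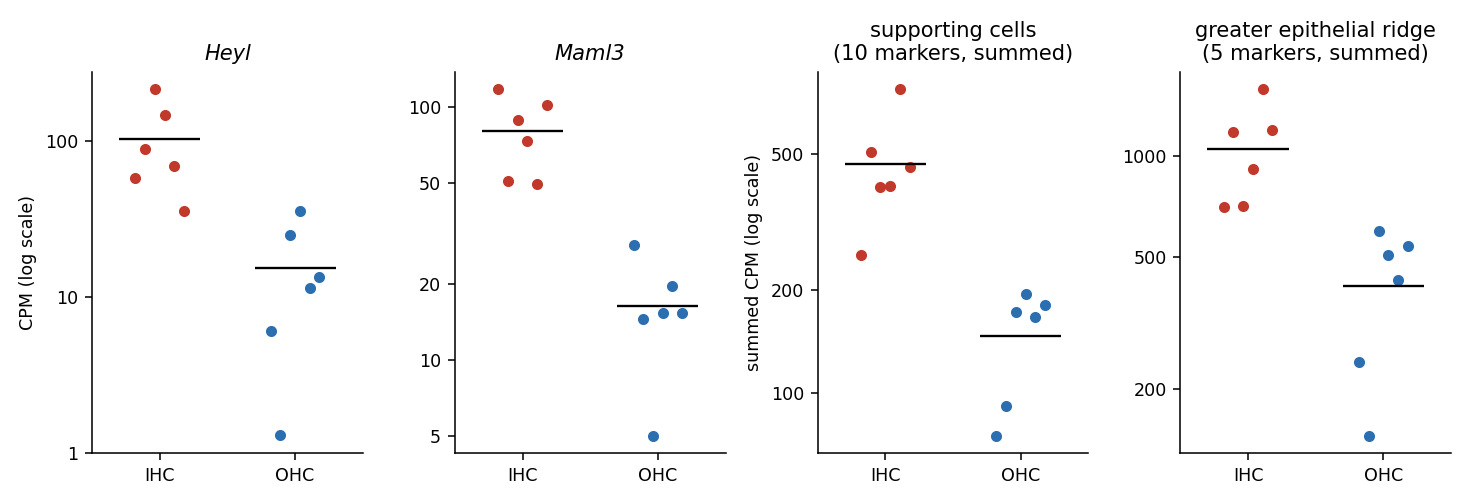
CPM (log scale) of Heyl and Maml3, and summed CPM of 10 supporting cell markers and 5 greater epithelial ridge markers, 1 point per library with a bar at the mean (IHCs red, OHCs blue). In all 4 panels every IHC library lies above every OHC library.

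Receptors other than Notch1 were not called by edgeR. Notch3 averaged 11.8 ± 6.24 CPM in IHCs and 6.93 ± 3.55 CPM in OHCs (log2 fold change -0.77, edgeR adjusted p = 0.497), and Notch2 8.13 ± 11.7 and 9.78 ± 4.24 CPM (0.27, adjusted p = 0.88). Notch2 in IHCs rested on replicate 6, at 31.0 CPM with the next at 9.95, and the value without it was 1.44. Notch4, best known from blood vessels, was at 0 to 1.98 CPM in IHCs and at 0.582 to 5.64 CPM in OHCs. The fitted value was 2.38 (SE 1.07, edgeR adjusted p = 0.199), with an adjusted p of 0.0399 by DESeq2. Of the endothelial markers 6 of the 8 tested were called higher in OHCs, and Cldn5 and Esam were at 0 in all IHC libraries. Whether they have a part in the level of Notch4 was not tested.

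Among the remaining genes, Dll4, a ligand also known from vessels, averaged 28.8 ± 25.5 CPM in IHCs and 25.6 ± 10.1 CPM in OHCs (log2 fold change -0.17, edgeR adjusted p = 0.874), with IHC replicate 1 at 80.3 CPM and a value of 0.46 without it. Rbpj, which encodes the DNA-binding partner of the receptor, was near level at 56.2 ± 21.8 and 54.8 ± 22.8 CPM (SD, n = 6 each), with a log2 fold change of -0.04 and an interval of -0.72 to 0.65 (edgeR adjusted p = 0.964). Hey1, a repressor related to Hey2, averaged 39.6 ± 14.6 CPM in IHCs and 56.0 ± 16.4 CPM in OHCs (0.50, edgeR adjusted p = 0.373). By role, the 9 genes of the proteases that cut the receptor gave 0 calls and none at an unadjusted p below 0.05, the 6 of the nuclear complex were all fitted below 0 with Maml3 alone called, and the 8 tested regulators of the receptor had a median of -1.36 with 0 called. Dtx3, a regulator of this last group, was closest at -1.79 (edgeR adjusted p = 0.0637) and was called by DESeq2 (adjusted p = 0.0096).

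**Figure D5:**
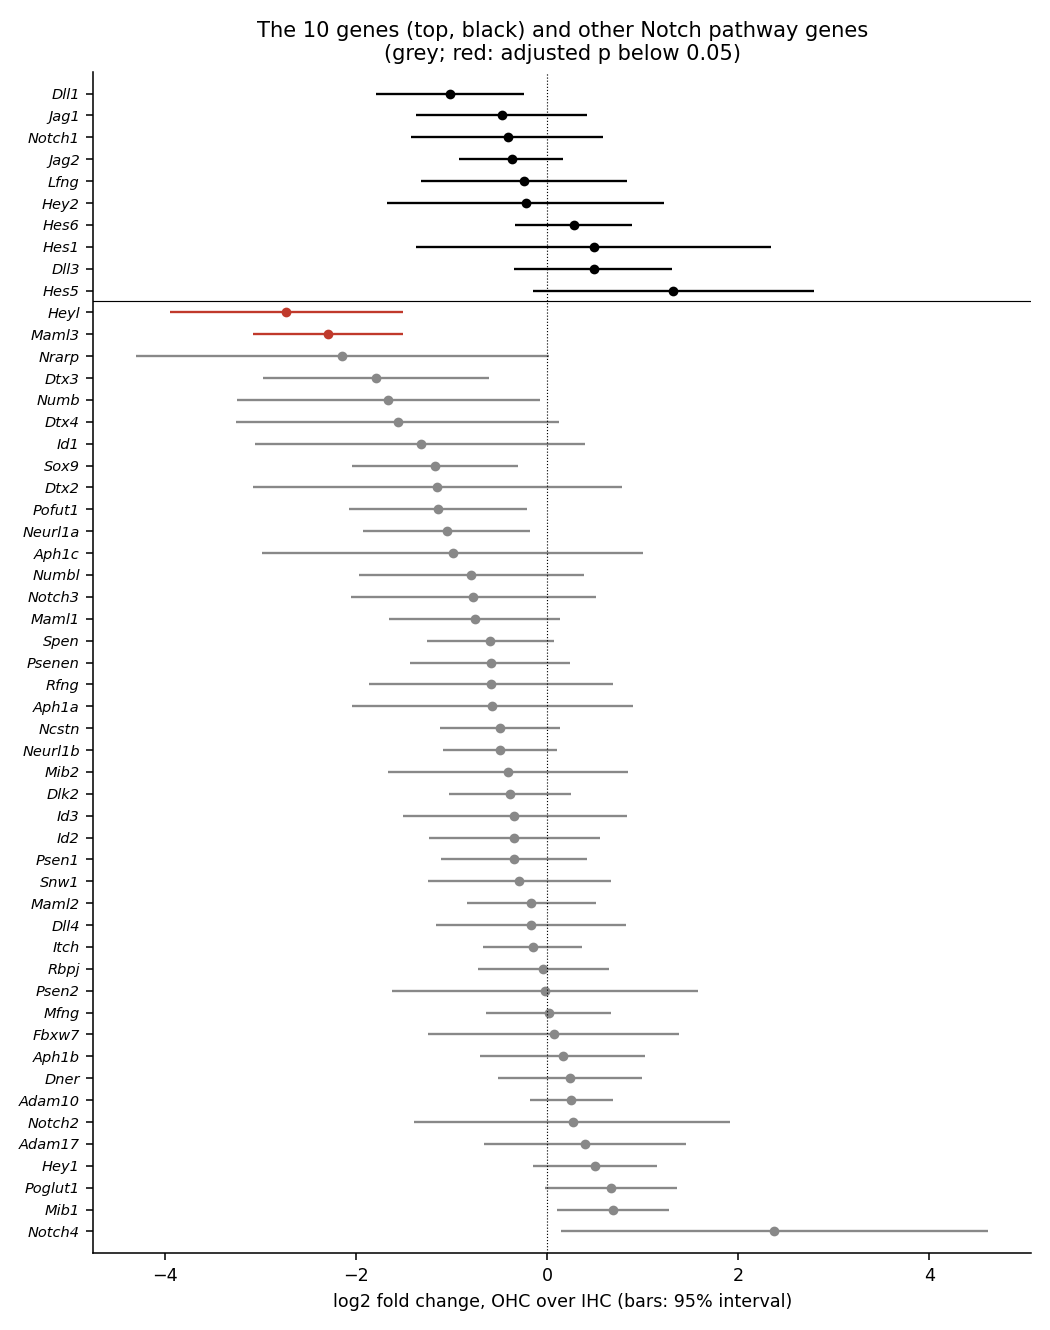
Log2 fold change of OHCs over IHCs with its 95% interval for the 10 genes (black, top) and the 43 other pathway genes tested (grey, or red where edgeR's adjusted p was below 0.05). Heyl at -2.73 and Maml3 at -2.29 are the only red points, and of the 10 genes only the interval of Dll1 leaves out 0.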

How the data were processed

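RNA-seq was analysed from 6 IHC and 6 OHC libraries, grouped by their labels. The authors deposited raw read counts per gene, without normalization. By the study's methods and the submitters' processing notes, reads from libraries depleted of ribosomal RNA and amplified from random hexamers were trimmed with Trimmomatic, aligned to GRCm39 with STAR in 2 passes and counted against GENCODE vM27 with HTSeq, set to intersection-nonempty. Tool versions and the strand setting are not given in the sources used here. Without strand, reads within bases shared by opposite genes are assigned to neither.

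The 5 summary lines in each file were left out. Names, coordinates and exon lengths came from GENCODE vM39, which covered 98.8% of identifiers and 99.97% of counts, and promoter sequences from RefSeq. Genes were kept with filterByExpr (minimum count 10, minimum total 15), normalized by TMM and tested with glmQLFit and glmQLFTest in edgeR 4.0.16 (R 4.3.3), with Benjamini-Hochberg adjustment over all 13269 genes, and the script was tested on simulated data. DESeq2 1.42.0, edgeR's exact test, other filters and scalings, a replicate block and leaving out each library were alternatives. Matches between genes used log2 CPM with a prior count of 2, and ratios had 0.5 added to each count. Values per library carry no molecular identifiers, so precision is read from the spread between libraries.

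The 10 genes, the pathway list and the markers were chosen with earlier results of these data known. Of the pathway list, genes past the threshold and Dll4, Notch2, Notch3, Notch4, Rbpj, Hey1 and Heyl are named by rule, and Dtx3, Sox9 and Psenen were added after its values were seen.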

Additional observations from a re-analysis of the deposited data

Results flagged for a closer look

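In each group of 6 libraries the highest and lowest values of the 10 genes and of 8 other named pathway genes were compared with their neighbours by Dixon's ratio, and 7 of 36 groups had a library that stood apart (19.4%). For normal values chance gives about 1 in 20, but 19.25% of all 26538 groups of 6 over the 13269 tested genes met the same limit, so the share here was close to that of all genes. IHC replicate 1 stood apart for 3 genes: Jag2 at 934.2 CPM with the next library at 412.4, Lfng at 68.74 with the next at 33.88, and Dll4 at 80.25 with the next at 24.04. OHC replicate 5 stood apart for Dll3, at 129.1 CPM above the next at 58.32, and for Hes6, at 36.83 CPM below the next at 64.41. IHC replicate 6 had 31.03 CPM of Notch2 with the next at 9.945, and IHC replicate 2 had 1.979 CPM of Notch4 with the next at 0.7194. Without the library in question the log2 fold change, OHCs over IHCs, was -0.01 for Jag2, 0.08 for Lfng, 0.46 for Dll4, 0.07 for Dll3, 0.40 for Hes6, 1.44 for Notch2 and 3.45 for Notch4, none of them called (edgeR adjusted p from 0.0866 to 0.974).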

How the results depend on the processing

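edgeR called none of the 10 genes under any alternative run with it. DESeq2 called 1, Dll1 (-1.03), and 1 other pathway gene higher in OHCs, Notch4 (2.40). Heyl and Maml3 were called under all 19, with 2 or 3 pathway genes higher in IHCs (Dtx3, Sox9 or Psenen being the third). All-gene counts, 506 higher in IHCs and 324 in OHCs, became 893 and 918 with no filter and 1339 and 1590 with DESeq2. The exact test gave 517 higher in OHCs. Leaving out 1 library gave 369 to 551 and 225 to 402. Fitted signs turned for Notch1 (leaving out 1 library, -0.64 to 0.23), Lfng (-0.63 to 0.08), Dll4 (-0.33 to 0.46, with 0.46 without IHC replicate 1) and Rbpj (-0.26 to 0.15, with 0.15 and 0.02 without IHC replicates 5 and 6 and 0.03 and 0.10 without OHC replicates 1 and 5). The cause was not tested. The Jag2 to Dll1 ratio lost its call in 9 of 12 such fits (0.62 to 0.95). Hes1 and Hes5 had no value where 10 counts were required in every library, and depth limits Hes1 most, with 5 counts in its lowest library.

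With the replicate number as a block, Notch1 was 0.08 and Dll4 0.01, and Sox9 was called (-1.36, edgeR adjusted p = 0.0449). Deviations of libraries with the same number correlated at -0.0313 to 0.0184 over 13269 genes, and 0 of 6 correlated best with their own number. The levels thus show no shared deviation by number. They cannot tell whether pools with the same number came from the same mice.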
